A study of Mus musculus with 16 samples.

Results

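Transcripts of 9 genes that build the epithelial basement membrane were followed in 16 cultures of mouse jejunal enteroids. The genes were Col4a1 and Col4a2, which encode the most widespread chains of collagen IV, Hspg2 (perlecan), Agrn (agrin) and the laminin chain genes Lama3, Lama5, Lamb1, Lamb3 and Lamc1. They were found by symbol among the 54532 genes of the count table, and all 9 passed the filter on low counts in each comparison. Enteroids are cultures of epithelium grown from intestinal crypts, and these were carried into differentiation conditions before RNA was taken. Each of 4 groups held 4 cultures, from 4 mice per group.

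Control enteroids are listed with no treatment. MYO5BΔIEC enteroids carried Vil1-CreERT2 and Myo5b flox/flox. They had 1 µM 4-OH-tamoxifen for 24 h to induce the loss of MYO5B, an apical vesicle motor. They then received vehicle (PBS) for 2 days. Compound-1-treated MYO5BΔIEC enteroids had the same genotype and induction and received 100 nM Compound-1, an agonist of the lysophosphatidic acid receptor LPAR5, for the same 2 days. MYO5B(G519R) enteroids came from Vil1-CreERT2 mice with 1 floxed and 1 G519R allele of Myo5b and had the same tamoxifen course. Vil1 drives Cre in intestinal epithelium. According to the methods the controls came from flox/flox mice and had ethanol in place of tamoxifen, while a figure legend calls them healthy littermates. An effect of tamoxifen or Cre activity itself and the loss of MYO5B cannot be told apart wherever control is the reference.

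A basement membrane is a thin sheet of matrix under an epithelium. Laminins are heterotrimers of an α, a β and a γ chain that polymerize at the cell surface and bind integrins and dystroglycan. Collagen IV forms a second, crosslinked network, in which the protomer of α1 and α2 chains is found in nearly all basement membranes. Perlecan, agrin and nidogens tie both networks together, and perlecan and agrin carry heparan sulfate chains that bind growth factors. In the intestine, epithelial cells are known to make laminin-332, with the chains of Lama3 and Lamb3, and laminin-511 (Lama5, Lamb1, Lamc1), while mesenchymal cells are the classical source of collagen IV. Crypts were embedded here in a commercial basement membrane extract, which supplies such proteins from outside. The counts measure transcripts of the cultured cells and say nothing of protein in that gel.

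Col4a1 (ENSMUSG00000031502) and Col4a2 (ENSMUSG00000031503) lie head to head on chromosome 8 of GRCm38, Col4a1 at 11198423 to 11312826 on the minus strand and Col4a2 at 11312805 to 11449287 on the plus strand. Their annotated ends overlap by 22 bases, and reads within that stretch cannot be assigned to one of them without strand. The promoter windows of both genes are shown because the chains changed together, and their sequence is from RefSeq on GRCm38.p6. Col4a1 is at chr8:11312777-11313076 on the minus strand and Col4a2 at chr8:11312555-11312854 on the plus strand. Each window is written 5′ to 3′ on its gene's strand, and capitals mark the 78 bases that both windows hold, in reverse complement of each other.
Col4a1: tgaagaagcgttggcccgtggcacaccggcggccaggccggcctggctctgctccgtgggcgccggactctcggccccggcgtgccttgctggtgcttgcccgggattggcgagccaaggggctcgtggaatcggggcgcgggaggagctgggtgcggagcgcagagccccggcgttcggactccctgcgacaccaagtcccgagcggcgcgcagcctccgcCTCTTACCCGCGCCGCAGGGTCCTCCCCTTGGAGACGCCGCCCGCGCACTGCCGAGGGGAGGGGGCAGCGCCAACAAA
Col4a2: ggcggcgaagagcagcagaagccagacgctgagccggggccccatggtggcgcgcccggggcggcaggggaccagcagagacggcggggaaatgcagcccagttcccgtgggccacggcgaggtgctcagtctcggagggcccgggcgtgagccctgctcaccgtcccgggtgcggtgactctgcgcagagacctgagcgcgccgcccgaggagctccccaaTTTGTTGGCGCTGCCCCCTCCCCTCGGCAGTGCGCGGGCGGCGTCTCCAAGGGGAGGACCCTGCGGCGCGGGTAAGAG

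The Hspg2 window is shown because Hspg2 departed from the other members in Compound-1-treated enteroids. It is at chr4:137468553-137468852 on the plus strand, and capitals mark 5 matches to GGGCGG, the GC box bound by SP family factors.
Hspg2: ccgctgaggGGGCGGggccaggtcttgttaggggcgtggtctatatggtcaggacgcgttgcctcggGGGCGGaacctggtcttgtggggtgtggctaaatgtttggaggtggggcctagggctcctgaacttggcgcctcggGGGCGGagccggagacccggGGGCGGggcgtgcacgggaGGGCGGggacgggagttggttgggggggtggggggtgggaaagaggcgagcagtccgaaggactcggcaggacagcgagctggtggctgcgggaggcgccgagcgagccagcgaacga
GGGCGG on either strand was found in 35.7% of 32851 promoter windows of this length in the same table. It was found in windows of 6 of the 7 members with a window, the exception being both windows of Lamb3. The 1 match of Col4a1 lies in the bases that its window shares with that of Col4a2, so that site is counted for both genes. CCAAT was in the windows of Col4a1, Col4a2 and Lamb1, against 37.4% of all windows. TATAAA (13.6% of all windows) and TGANTCA, the AP-1 letters (7.81%), were in none of the 9 windows searched, and CATTCC, the TEAD letters (14.7%), was in 1 of 2 windows of Lamb3. These are letter matches only, on both strands, and no binding was measured.

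Between 27804968 and 40101729 reads per culture were counted on genes. Levels are given in CPM, counts scaled by TMM library sizes to a common depth, and levels of different genes are set against each other only in the authors' FPKM, which divide by gene length. At these depths a count of 0 allows up to 0.0736 to 0.111 CPM (3 counts, counting error only). Pearson r of log2 CPM between cultures of a group lay between 0.953 and 0.988. Control culture 1 stood apart from the other controls, with 20386 genes detected against 22669 to 23611. Of its counts 6.41% were on mitochondrial genes, against 9.07% to 10.4%. The other 12 cultures were at 3.79% to 6.63%. Myo5b was counted over the whole gene, and neither its recombination nor its protein was examined here. For its transcript, MYO5BΔIEC culture 3, at 169 CPM, lay above control culture 1, at 160 CPM. Myo5b transcript averaged 189 ± 29.9 CPM (SD, n = 4) in control. The means of the other groups were 128 ± 31 CPM for MYO5BΔIEC, 150 ± 17 CPM for MYO5B(G519R) and 111 ± 26.8 CPM for treated enteroids, and the last alone fell against control by edgeR (adjusted p = 0.0146, the others 0.0503 and 0.109). Epithelial markers summed to 6970 to 8570 CPM in control and 9230 to 17300 CPM elsewhere. The jejunal markers Gata4, Lct and Fabp1 summed to 427 CPM or more in every culture. Fabp1 ran from 245 to 4450 CPM in control and from 417 to 1630 CPM elsewhere, and Lct was at 0.457 CPM in treated culture 4. The ileal markers Fabp6 and Slc10a2 summed to 1.93 to 2.57 CPM in control and 2.63 to 17.0 CPM elsewhere. Slc10a2 was called higher by edgeR in each of the other groups against control. Of 10 fibroblast markers, 9 were under 1 CPM in all 16 cultures and 3 were at 0, and the summed list reached 1.98 CPM at most.

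Per length, Agrn was the most abundant member in control enteroids at 12.4 ± 4.06 FPKM (SD, n = 4), followed by Lamb3 at 9.04 ± 3.85, Lamc1 at 3.48 ± 1.47, Lama5 at 2.96 ± 0.817 and Hspg2 at 1.52 ± 0.693. Each of these overlapped its neighbour in the order. A gap followed, since the lowest Hspg2 culture (0.972 FPKM) was above the highest of the next gene, Col4a1 (0.738 FPKM). Col4a1 averaged 0.356 ± 0.264 FPKM, Col4a2 0.265 ± 0.183, Lama3 0.218 ± 0.125 and Lamb1 0.176 ± 0.103, again with overlap between neighbours. Agrn was also first in the other 3 groups, there without overlap with Lamb3, the second. Lama5 stood above Lamc1 in the mean of those 3 groups and below it in control, with overlapping cultures throughout.

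All 9 genes rose in MYO5BΔIEC enteroids against control, and all 9 rose in MYO5B(G519R) enteroids. Among all genes tested, 13.5% were called higher in MYO5BΔIEC (2427 of 17951) and 13.1% in MYO5B(G519R) (2341 of 17829). The median log2 fold change over the members was 1.97 for MYO5BΔIEC and 1.77 for MYO5B(G519R), against -0.01 and -0.05 over all genes tested. Every mutant culture was above every control culture for 7 members in MYO5BΔIEC, against 13.0% of all genes, and for 8 members in MYO5B(G519R), against 13.6%. Both comparisons use the same 4 control cultures, so they are not independent of each other. The members were chosen with earlier results of these data known, and the paper had named Col4a2 among genes raised by MYO5B loss. These counts, and those of treated enteroids against control below, are therefore a description and no independent result about the set. The plot of levels by culture shows these values for each member.

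**Figure D1:**
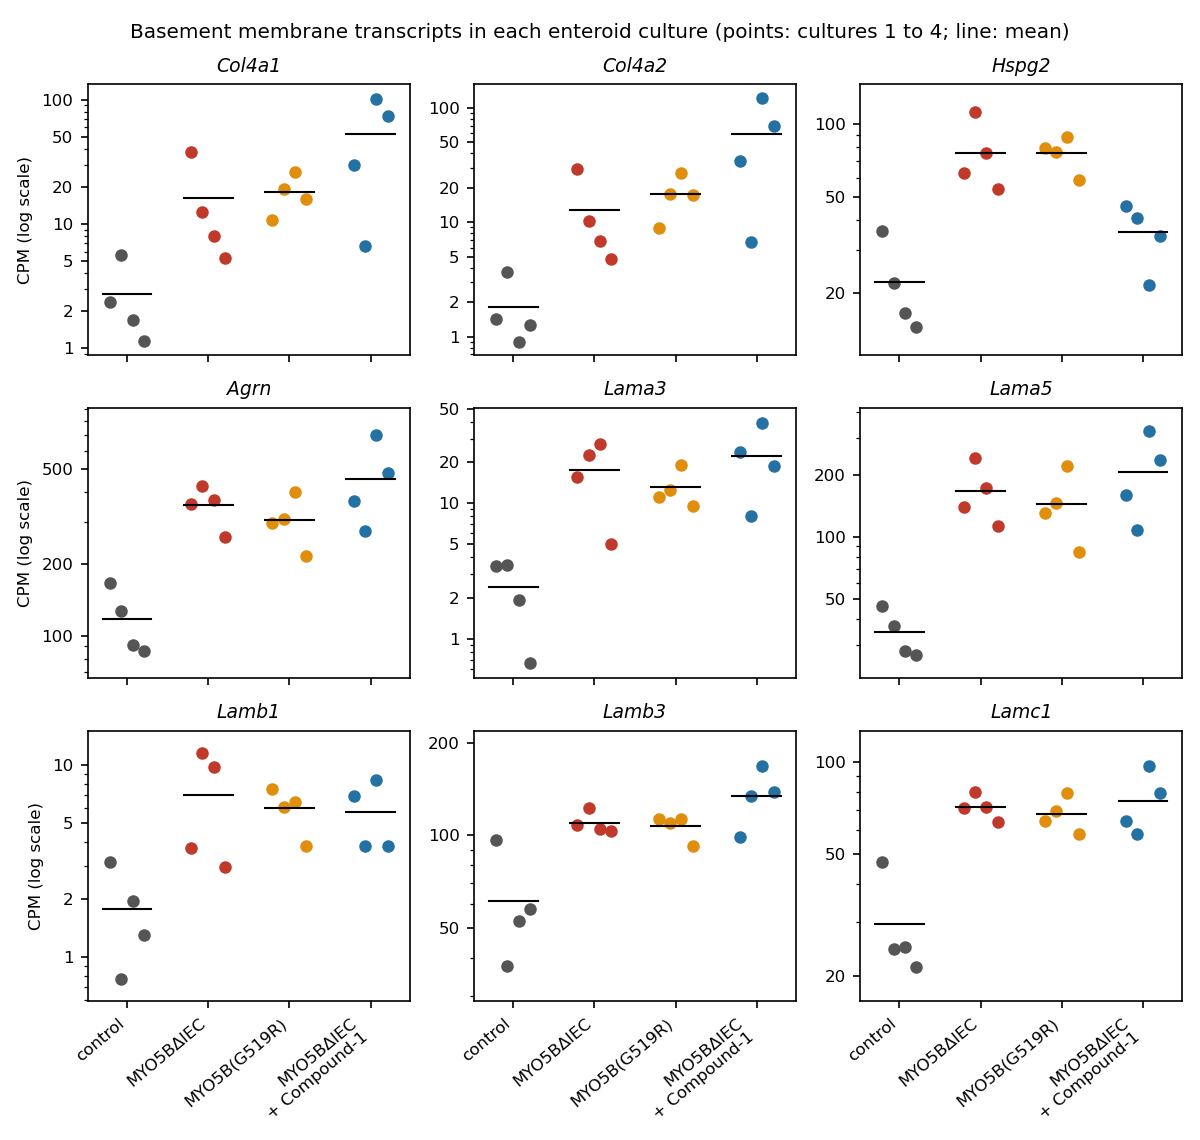
CPM of each member in each culture on a log scale, with 4 cultures a group as points, in the order of culture number, and the mean as a line. The control cultures sit lowest in most panels. Hspg2 is the 1 panel in which Compound-1-treated cultures (21.5 to 45.9 CPM) lie wholly below MYO5BΔIEC cultures (53.6 to 112 CPM).

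Long genes moved with the same contrasts. The members' summed exon lengths run from 6612 bases (Lamb3) to 14307 (Hspg2), and over all genes tested the log2 fold change rose with gene length (Spearman rho 0.286 over 17951 genes in MYO5BΔIEC and 0.294 over 17829 genes in MYO5B(G519R), across genes, which are not independent replicates). Of the 3477 tested genes at least as long as the shortest member, 26.2% were called higher in MYO5BΔIEC, and of 3454 in MYO5B(G519R), 23.4%. With that trend removed from the counts, all 9 members were still called higher in both models. This count does not give the size of the differences that remained, and the part of gene length in them was not tested.

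The collagen IV chains showed the largest differences of the group together with Lama3. Col4a1 was at 2.38, 5.68, 1.70 and 1.15 CPM in control cultures 1 to 4. It was at 38.3, 12.6, 8.07 and 5.28 CPM in MYO5BΔIEC and at 10.7, 19.3, 26.3 and 15.8 CPM in MYO5B(G519R). MYO5B(G519R) cultures all lay above the controls, while MYO5BΔIEC culture 4 fell below control culture 2. The mean of 16.1 ± 15.1 CPM in MYO5BΔIEC against 2.73 ± 2.03 in control (SD, n = 4) gave a 5.92-fold difference (95% interval 2.16 to 16.2, log2 2.57, SE 0.66, edgeR adjusted p = 0.0165). MYO5B(G519R), at 18 ± 6.57 CPM, was 6.59-fold above control (3.17 to 13.7, edgeR adjusted p = 0.00411).

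Col4a2 followed the same order. Its control cultures held 1.41, 3.66, 0.897 and 1.26 CPM. MYO5BΔIEC cultures held 29.4, 10.2, 6.83 and 4.80 CPM, and MYO5B(G519R) cultures 8.81, 17.5, 27.1 and 17.2 CPM. No mutant culture overlapped with control. The difference was 7.12-fold in MYO5BΔIEC (95% interval 2.76 to 18.3, edgeR adjusted p = 0.00814) and 9.77-fold in MYO5B(G519R) (4.68 to 20.4, edgeR adjusted p = 0.00232).

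Single cultures set the size of these collagen IV differences more than their direction. MYO5BΔIEC culture 1 was the highest of its group for both chains, and without it the log2 fold change of Col4a1 was 1.67 and that of Col4a2 2.02. Without control culture 2, the highest control, they were 3.21 and 3.44, and in MYO5B(G519R) 3.36 and 3.89. The Col4a1 call in MYO5BΔIEC was lost without control culture 3 (edgeR adjusted p = 0.0523), and Col4a2 was called in all 8 fits that left out 1 culture (edgeR adjusted p up to 0.0296).

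The 2 chains stayed close to each other within each culture. The ratio of Col4a1 to Col4a2 in FPKM ran from 0.809 to 1.68 over the controls, from 0.975 to 1.16 over MYO5BΔIEC cultures and from 0.814 to 1.08 over MYO5B(G519R) cultures. After the group means were subtracted, their log2 CPM had a Pearson r of 0.98 over the 16 cultures, the highest of the 36 pairs of members (range -0.19 to 0.98, median 0.56). These points share libraries and depth, and no test was made.

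Among the other collagen IV chains, Col4a5, an X-linked chain of α3α4α5 and α5α6 protomers, rose in both models but stayed low. It averaged 0.0339 CPM in control, with 1 culture at 0, 0.387 CPM in MYO5BΔIEC (edgeR adjusted p = 0.00832) and 0.316 CPM in MYO5B(G519R) (edgeR adjusted p = 0.0186). Control cultures held 0 to 2 counts of Col4a5, which passed the filter on low counts only through the mutant cultures. These 2 calls are therefore a description and no independent support for a rise. Col4a3 and Col4a4 showed no call (Col4a3 0.832 CPM in control and 0.736 in MYO5BΔIEC, edgeR adjusted p = 0.818; Col4a4 0.314 and 0.195 CPM, edgeR adjusted p = 0.593). Col4a6 was at 0 in every control culture and reached 0.172 CPM at most elsewhere. Summed over the 6 chains, collagen IV was at 0.736 ± 0.433 FPKM in control (SD, n = 4), against 4.22 ± 3.64 FPKM for MYO5BΔIEC and 5.2 ± 2.03 FPKM for MYO5B(G519R). Col4a1 and Col4a2 made up 45.6% and 35.0% of that sum in control and 48.5% and 45.3% in MYO5BΔIEC.

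**Figure D2:**
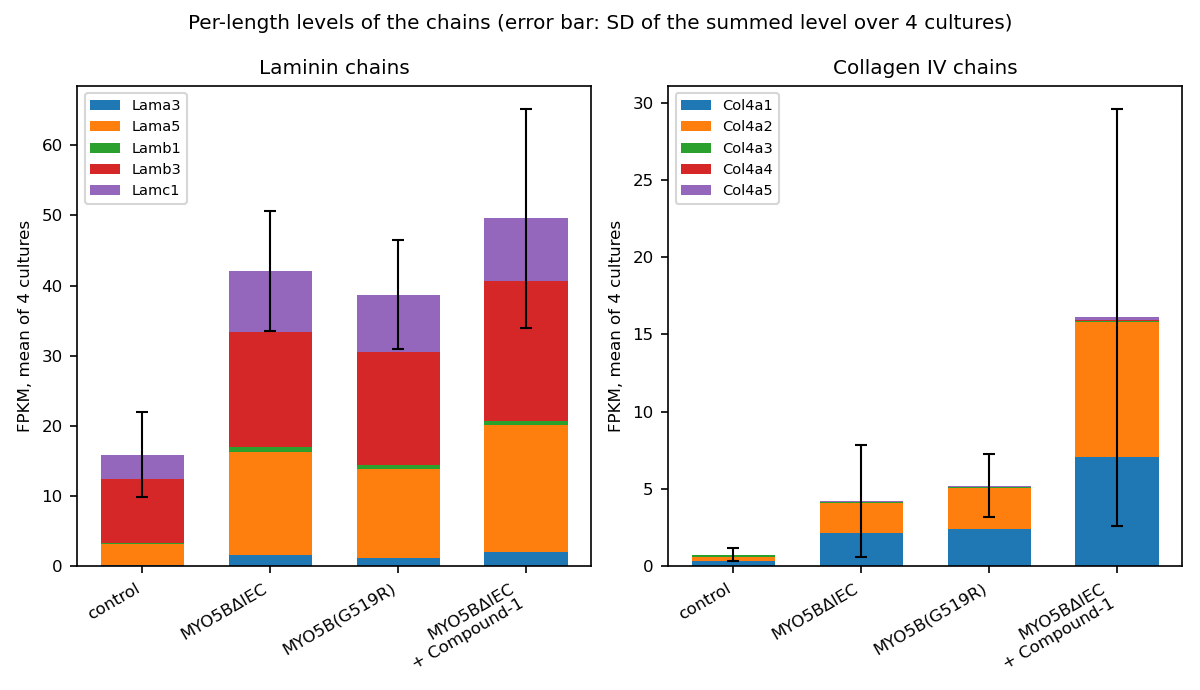
Mean FPKM of the 5 member laminin chains (left) and collagen IV chains (right) in 4 cultures per group, stacked, with the SD of the summed level as the error bar. Col4a6, near 0, is left out. The 5 laminin chains sum to 15.9 FPKM in control and 49.6 in Compound-1-treated enteroids, and collagen IV to 0.736 and 16.1.

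Both heparan sulfate proteoglycans rose in both models without overlap with control. Hspg2 (ENSMUSG00000028763) lies on chromosome 4 at 137468769 to 137570630 and Agrn (ENSMUSG00000041936) on the same chromosome at 156165290 to 156197488. Hspg2 was at 36.2, 21.9, 16.5 and 14.4 CPM in control cultures 1 to 4. It was at 62.7, 112, 75.8 and 53.6 CPM in MYO5BΔIEC and at 79.7, 76.2, 88.6 and 58.8 CPM in MYO5B(G519R). The lowest mutant culture was thus above the highest control, culture 1. Hspg2 differed 3.44-fold in MYO5BΔIEC (95% interval 2.13 to 5.56, log2 1.78, SE 0.31, edgeR adjusted p = 0.00343) and 3.41-fold in MYO5B(G519R) (2.23 to 5.2, log2 1.77, SE 0.27, edgeR adjusted p = 0.00298).

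Agrn, which binds laminin through its amino-terminal end and dystroglycan through its other end, was at 166, 127, 91.2 and 86.1 CPM in control. It was at 356, 425, 371 and 259 CPM in MYO5BΔIEC and at 299, 308, 400 and 216 CPM in MYO5B(G519R). No mutant culture reached down to the controls, of which culture 1 was again the highest. The difference was 3.02-fold in MYO5BΔIEC (95% interval 2.10 to 4.34, edgeR adjusted p = 0.002) and 2.60-fold in MYO5B(G519R) (1.78 to 3.81, edgeR adjusted p = 0.00458). Hspg2 and Agrn were called in each of the 16 fits that left out 1 culture, with edgeR adjusted p up to 0.0153 and 0.0191.

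The laminin α chains rose more than the β3 and γ1 chains by their estimates, and these differences between genes were not tested. Lama5 (ENSMUSG00000015647, chromosome 2, 180176373 to 180225859), the α chain of laminin-511 and laminin-521, was at 46.4, 37.2, 27.9 and 26.9 CPM in control. It was at 140, 241, 173 and 113 CPM in MYO5BΔIEC and at 130, 145, 219 and 84.0 CPM in MYO5B(G519R). The groups did not overlap in either comparison. Lama5 had the lowest edgeR adjusted p of the members, 0.0014 in MYO5BΔIEC, for a 4.86-fold difference (95% interval 3.26 to 7.24), and in MYO5B(G519R) it was 4.17-fold higher (2.68 to 6.5, edgeR adjusted p = 0.00222).

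Lama3 (ENSMUSG00000024421), the α chain of laminin-332, ranged from 0.667 to 3.52 CPM over the controls. MYO5BΔIEC cultures ranged from 5.04 to 27.2 CPM and MYO5B(G519R) cultures from 9.56 to 19.1 CPM. No mutant culture overlapped with control. It was 7.35-fold higher in MYO5BΔIEC (95% interval 3.10 to 17.4, edgeR adjusted p = 0.00518) and 5.44-fold higher in MYO5B(G519R) (2.74 to 10.8, edgeR adjusted p = 0.00476). Lama1, Lama2 and Lama4, the α chains of embryonic, muscle and vascular laminins, stayed at 0.389 CPM or below in every culture and were not tested.

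Of the β chains, Lamb3 (ENSMUSG00000026639, chromosome 1, 193207699 to 193343878), the partner of Lama3 in laminin-332, was the most abundant and changed least among the members. It was at 96.9, 37.6, 52.6 and 57.7 CPM in control. It was at 108, 123, 105 and 103 CPM in MYO5BΔIEC and at 113, 110, 113 and 92.1 CPM in MYO5B(G519R). Control culture 1 lay above MYO5B(G519R) culture 4 and close to the other mutant cultures. Lamb3 was 1.80-fold higher in MYO5BΔIEC (95% interval 1.24 to 2.62, edgeR adjusted p = 0.0257) and 1.75-fold higher in MYO5B(G519R) (1.2 to 2.55, edgeR adjusted p = 0.0366).

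These Lamb3 calls were kept in 2 of 8 fits that left out 1 culture in each model. Without control culture 1 the edgeR adjusted p was 0.000201 in MYO5BΔIEC and 0.000181 in MYO5B(G519R), and the calls also held without culture 4 of the mutant group. Leaving out any other control (2, 3, 4) ended both calls (edgeR adjusted p = 0.0563, 0.0771 and 0.0702 for MYO5BΔIEC, and 0.0721, 0.0997 and 0.0904 for MYO5B(G519R)). They were also lost without culture 1, 2 or 3 of MYO5BΔIEC (0.0561, 0.0748 and 0.0515) or of MYO5B(G519R) (0.0831, 0.0827 and 0.0865). The log2 fold change of Lamb3 stayed between 0.63 and 1.16 in these fits.

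Lamb1 (ENSMUSG00000002900, chromosome 12, 31265234 to 31329644), the β chain of laminin-511, ran from 0.764 to 3.13 CPM over the controls. It ran from 2.94 to 11.6 CPM over MYO5BΔIEC cultures and from 3.8 to 7.55 CPM over MYO5B(G519R) cultures. MYO5BΔIEC culture 4 lay below the highest control. The difference was 3.93-fold in MYO5BΔIEC (95% interval 1.76 to 8.77, edgeR adjusted p = 0.0191) and 3.32-fold in MYO5B(G519R) (1.79 to 6.14, edgeR adjusted p = 0.0121). The first call was lost without control culture 4 (edgeR adjusted p = 0.0586) and without MYO5BΔIEC culture 2 (0.0652) or 3 (0.0544), and the second held in all 8 such fits. Lamb2, the alternative β chain, averaged 3.42 CPM in control and rose to 7.89 CPM with loss of MYO5B (edgeR adjusted p = 0.0218) and to 6.7 CPM with the G519R allele (edgeR adjusted p = 0.0401).

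Lamc1 (ENSMUSG00000026478, chromosome 1, 153218922 to 153332786), the γ chain shared by most laminins, was at 47.3, 24.5, 24.8 and 21.4 CPM in control. It was at 70.8, 80.0, 71.2 and 63.8 CPM in MYO5BΔIEC and at 64.5, 69.2, 79.3 and 58.4 CPM in MYO5B(G519R). Control culture 1 stood well above the other controls and still below each mutant culture. Lamc1 was 2.44-fold higher in MYO5BΔIEC (95% interval 1.70 to 3.49, edgeR adjusted p = 0.00399) and 2.30-fold higher in MYO5B(G519R) (1.59 to 3.33, edgeR adjusted p = 0.00673). Lamc3 was at 0.142 CPM or below throughout.

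**Figure D3:**
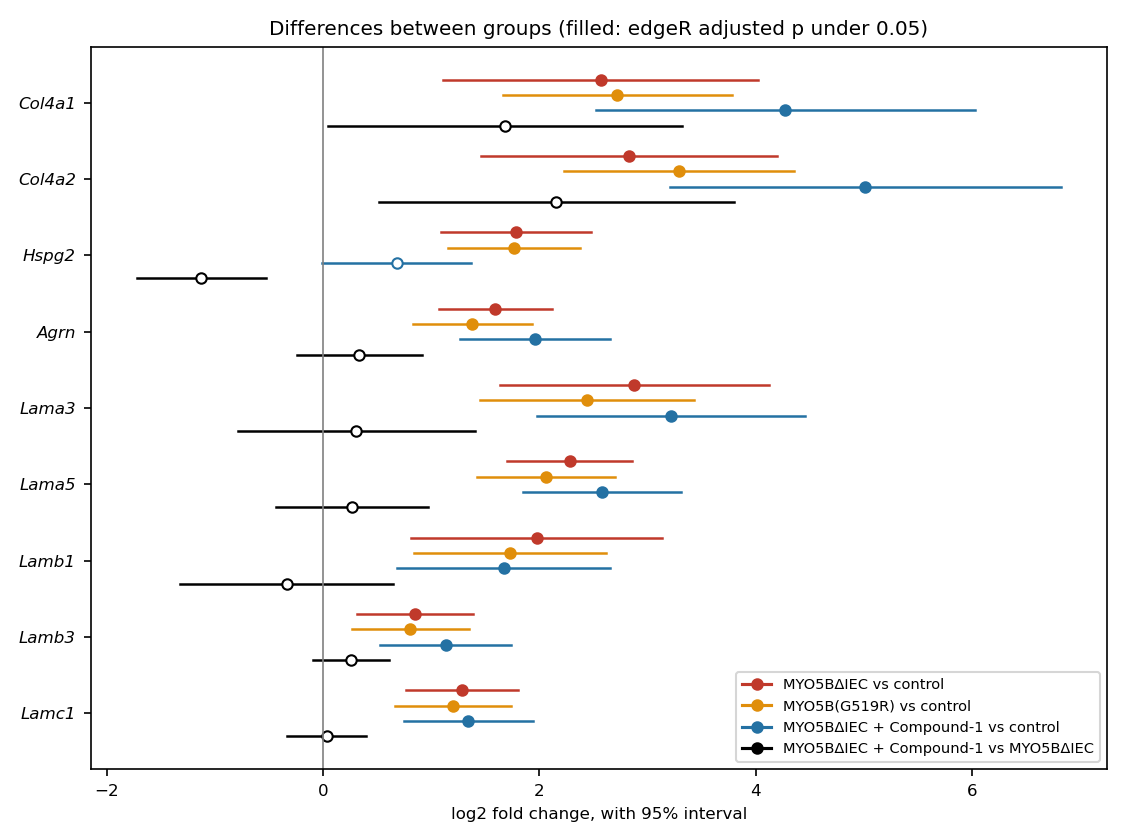
Log2 fold change of each member with its 95% interval in 4 comparisons, filled where the edgeR adjusted p was under 0.05. In MYO5BΔIEC against control all 9 points are filled, in Compound-1-treated enteroids against control 8, and in treated against vehicle none, with Hspg2 at -1.13 and Col4a2 at 2.15.

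The shares of the 5 laminin chains in their sum differed between groups in the means. The sum was at 15.9 ± 6.01 FPKM in control (SD, n = 4), against 42.1 ± 8.5 FPKM for MYO5BΔIEC and 38.7 ± 7.77 FPKM for MYO5B(G519R). Lamb3 made up 56.3% ± 7.14 of the sum in control and 39.9% ± 4.89 in MYO5BΔIEC, and the cultures did not overlap. Lama5 made up 19.4% ± 4.79 in control and 34.1% ± 4.78 in MYO5BΔIEC, also without overlap. In MYO5B(G519R) both shares overlapped with control, Lamb3 at 35.3% to 47% against 46.2% to 62.9% and Lama5 at 24.9% to 39.8% against 16.2% to 26.5%. The ratio of Lama5 to Lamc1 ran from 0.712 to 1.1 over the controls and from 1.29 to 2.19 over MYO5BΔIEC cultures, without overlap. Over MYO5B(G519R) cultures it ran from 1.05 to 2, and culture 4 overlapped with control. Within laminin-332, the ratio of Lamb3 to Lama3 ran from 17.4 to 141 over the controls and from 6.23 to 33.3 over MYO5BΔIEC cultures, with overlap. These shares are descriptions with no test.

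No member differed between MYO5B(G519R) and MYO5BΔIEC enteroids by edgeR, a comparison in which 0.00557% of genes were called (1 of 17943, with 772 at an unadjusted p under 0.05 and 4 called by DESeq2). Hspg2 had a fold of 0.993 between the models (95% interval 0.713 to 1.38) and Lamc1 of 0.948 (0.788 to 1.14). For Lama3 the interval was wider, 0.398 to 1.39 around 0.744, and for Col4a2 it was 0.638 to 2.98 around 1.38. The edgeR adjusted p of the members lay at 0.844 or above. The log2 fold change of Col4a2 was 0.46, and 1.27 on leaving out MYO5BΔIEC culture 1 (edgeR adjusted p = 0.667). The intervals leave room for differences of up to 2.98-fold for Col4a2 and do not show that the models were alike.

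Treated and vehicle-treated MYO5BΔIEC enteroids were compared to ask which transcripts follow Compound-1. By edgeR no member passed the threshold, nor did any other gene (0% of 18037, with 1355 at an unadjusted p under 0.05; DESeq2 called 91). Hspg2 was the member that stood apart. It was at 45.9, 40.8, 21.5 and 34.5 CPM in treated cultures and at 62.7, 112, 75.8 and 53.6 CPM in vehicle cultures. Every treated culture was below every vehicle culture, which held for 1.27% of genes tested (229 of 18037). The paper had already named Hspg2 among genes that Compound-1 reversed in these cultures, so this is no independent finding. The fold was 0.458 (95% interval 0.303 to 0.692, log2 -1.13, SE 0.27), at an unadjusted p of 0.00152, the 31st lowest of all genes. Its edgeR adjusted p was 0.532 and its DESeq2 adjusted p was 0.0298.

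Without 1 culture at a time, the log2 fold change of Hspg2 between treated and vehicle cultures stayed between -1.28 and -0.87 and was called by edgeR in none of 8 fits (edgeR adjusted p 0.242 to 1). With no filter on low counts its edgeR adjusted p was 0.0654. In treated enteroids Hspg2 was 1.60-fold above control (95% interval 0.992 to 2.58, edgeR adjusted p = 0.125), with treated cultures 3 and 4 below control culture 1. This difference passed the threshold in 1 of 8 fits that left out 1 culture, the fit without control culture 1 (log2 1.04, edgeR adjusted p = 0.00994). The other such fits gave edgeR adjusted p of 0.0736 to 0.278. Among the other alternatives only the replicate block called it (edgeR adjusted p = 0.0373). With the gene length trend removed its log2 fold change was 0.396 (edgeR adjusted p = 0.298).

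Agrn gave a contrast within the same cultures. It was at 369, 275, 699 and 484 CPM in treated cultures, against 259 to 425 CPM in vehicle cultures, a fold of 1.26 (95% interval 0.847 to 1.88, edgeR adjusted p = 0.88). The ratio of Hspg2 to Agrn in FPKM ran from 0.109 to 0.142 over the controls, from 0.114 to 0.171 over MYO5BΔIEC cultures and from 0.144 to 0.177 over MYO5B(G519R) cultures. In treated cultures it was 0.0199 to 0.0964, below every culture of the other groups. This ratio was computed with the Hspg2 values known, and no test was made.

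The collagen IV chains were higher in the mean of treated than of vehicle cultures, and they varied most there. Col4a1 was at 29.6, 6.61, 102 and 73.7 CPM and Col4a2 at 34.2, 6.70, 123 and 70.0 CPM in treated cultures 1 to 4. Treated cultures 3 and 4 lay above every vehicle culture and culture 2 within their range for both chains, while culture 1 lay within it for Col4a1 and above it for Col4a2. Among treated cultures the highest culture was 15.4 times the lowest for Col4a1 and 18.3 times for Col4a2. Against vehicle the fold was 3.21 for Col4a1 (95% interval 1.03 to 9.96, edgeR adjusted p = 0.659) and 4.44 for Col4a2 (1.43 to 13.9, edgeR adjusted p = 0.56). On the log2 scale these are 1.68 and 2.15. They became 2.56 and 2.96 on leaving out MYO5BΔIEC culture 1, and Col4a2 became 1.5 on leaving out treated culture 3, with no call in any such fit. The ratio of Col4a1 to Col4a2 was 0.735 to 0.934 in treated cultures and 0.975 to 1.16 in vehicle cultures, a description with no test.

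Against control, 8 of the 9 members were higher in treated enteroids by edgeR, the exception being Hspg2. Among all genes tested 15.7% were called higher in this comparison (2820 of 17937), and 14.3% had every treated culture above every control culture, as did 8 members. Col4a2 was 32.3-fold above control (95% interval 9.21 to 113, edgeR adjusted p = 0.00434) and Col4a1 19.3-fold (5.74 to 65.2, edgeR adjusted p = 0.00572). Without control culture 2 their log2 fold changes were 5.61 and 4.91 in place of 5.01 and 4.27, and without treated culture 3 that of Col4a2 was 4.35. Lama3 was 9.30-fold above control, Lama5 5.97-fold, Agrn 3.89-fold, Lamb1 3.18-fold, Lamc1 2.54-fold and Lamb3 2.20-fold, at edgeR adjusted p of 0.00398 to 0.0188. The Lamb1 call was lost without control culture 4 (edgeR adjusted p = 0.0597) or treated culture 3 (0.0588).

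None of the 5 laminin chains differed between treated and vehicle cultures by edgeR, at adjusted p of 0.799 or above. The folds were 1.24 for Lama3 (95% interval 0.579 to 2.64), 1.2 for Lama5 (0.741 to 1.96), 0.793 for Lamb1 (0.4 to 1.57), 1.2 for Lamb3 (0.939 to 1.53) and 1.02 for Lamc1 (0.794 to 1.32).

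Cultures of a group differed along most members at once. MYO5BΔIEC culture 4 was the lowest of its group for all 9 members, and MYO5B(G519R) culture 4 for 7. Treated culture 3 was the highest of its group for 8 members and the lowest for Hspg2. In control, culture 1 was the highest for 6 members and culture 4 the lowest for 6. Of the 12 cultures outside control, 8 were above every control culture for all 9 members. The exceptions were MYO5B(G519R) culture 4 (Lamb3), MYO5BΔIEC culture 4 (Col4a1 and Lamb1) and treated cultures 3 and 4 (Hspg2).

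**Figure D4:**
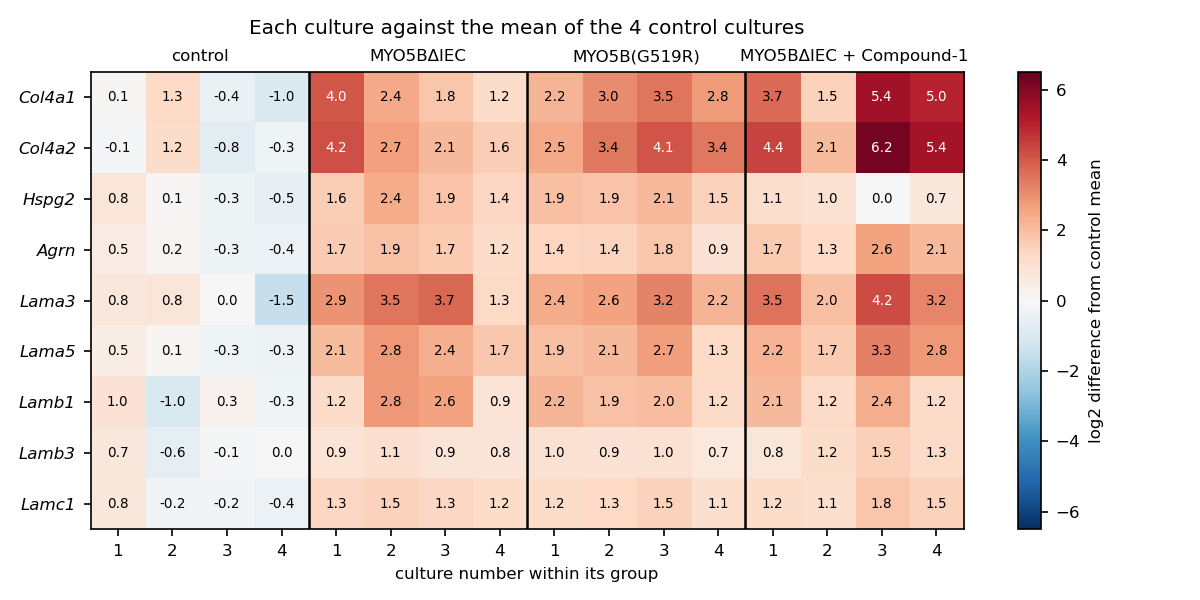
Log2 difference of each culture from the mean of the 4 control cultures for each member (log2 CPM with a prior count), red for higher and blue for lower. Columns are the 16 cultures by group. In the treated cultures Hspg2 lies 0.04 to 1.14 above the control mean, while Col4a2 reaches 6.24.

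Over the 16 cultures, the genes whose log2 CPM most resembled the mean of the members, each member first brought to mean 0 and SD 1, were Itpr3 (an endoplasmic reticulum calcium channel, Pearson r 0.99), Rps6ka4 (a nuclear kinase, 0.99), Dab2ip (a Ras GTPase-activating protein, 0.99), Ahdc1 (0.99) and Plxnb2 (a semaphorin receptor, 0.99). They were taken from 13545 genes with a mean of at least 1 CPM. After the group means were subtracted, Itpr3 (0.97), Ptprf (a receptor tyrosine phosphatase, 0.97), Rps6ka4 (0.97), Plxnb2 (0.96) and Ndnf (0.96) were first. Itpr3 averaged 109 CPM in control and 269, 280 and 302 CPM in the MYO5BΔIEC, MYO5B(G519R) and treated groups. The members themselves had r of 0.68 (Hspg2) to 0.98 (Lama5) with their own mean, and 0.42 (Hspg2) to 0.97 (Agrn) once group means were subtracted. All these points share libraries and depth, and all of the genes named but Rps6ka4 (3119 bases) are longer than the shortest member, so the values are given as a description.

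**Figure D5:**
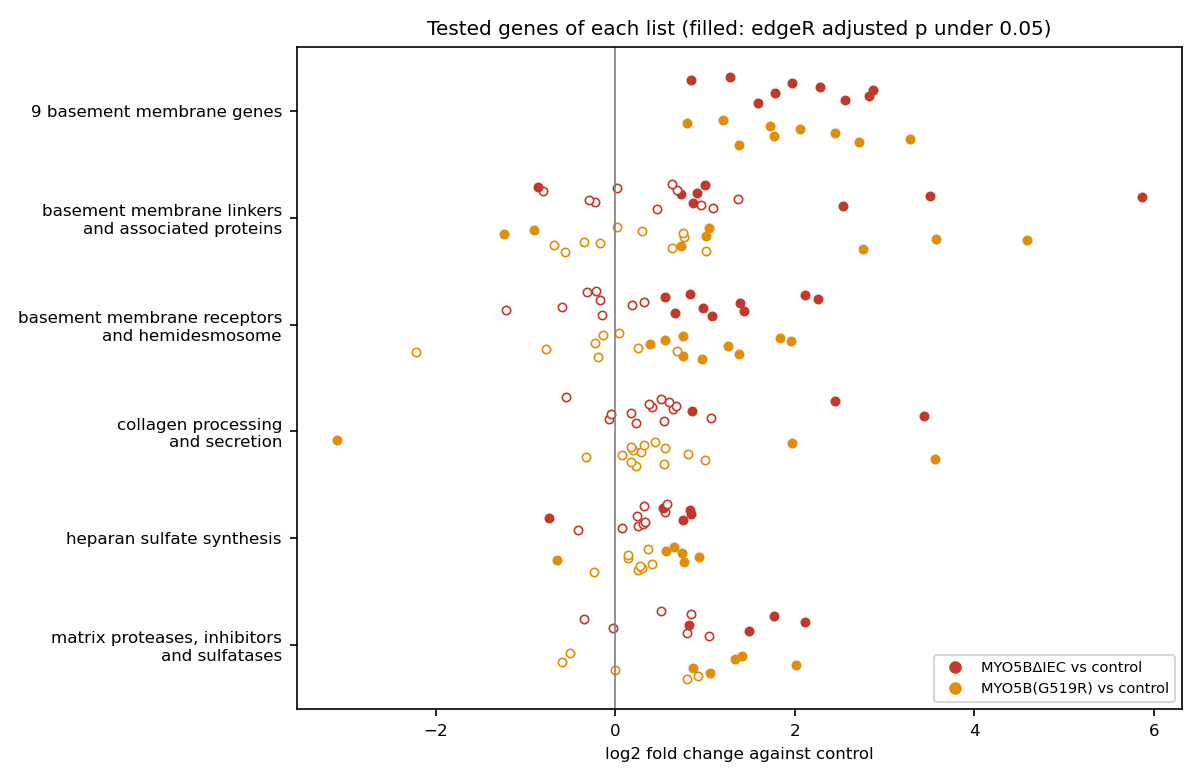
Log2 fold change against control of the tested genes of each list, red for MYO5BΔIEC and orange for MYO5B(G519R), filled where the edgeR adjusted p was under 0.05. All 9 members are filled and to the right of 0 in both models, while each other list holds filled and open points.

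The same tests were read for other genes of basement membrane assembly, in lists whose counts stand beside 13.5% of all genes called higher in MYO5BΔIEC and 13.1% in MYO5B(G519R). Of 23 linkers and associated proteins, 18 were tested, and 7 rose and 1 fell in MYO5BΔIEC (median log2 fold change 0.80), while 6 rose and 2 fell in MYO5B(G519R) (median 0.68). Nid1, the nidogen that joins laminin γ1 to collagen IV, was at 1.10, 2.66, 0.769 and 0.667 CPM in control. It was at 27.6, 12.9, 10.8 and 7.66 CPM in MYO5BΔIEC and at 7.02, 11.7, 26 and 17.3 CPM in MYO5B(G519R), without overlap. Nid1 rose 11.4-fold (edgeR adjusted p = 0.00203) and 11.9-fold (edgeR adjusted p = 0.00246). Its relative Nid2 rose 1.66-fold in MYO5BΔIEC (edgeR adjusted p = 0.0489) and missed the threshold in MYO5B(G519R) (1.70-fold, edgeR adjusted p = 0.0557).

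Col18a1, which encodes a collagen with heparan sulfate chains, averaged 1.16 CPM in control and rose to 6.71 CPM in MYO5BΔIEC (edgeR adjusted p = 0.00448) and to 7.91 CPM in MYO5B(G519R) (edgeR adjusted p = 0.00404). Hmcn2, a hemicentin, was near 0 in control (0 to 0.251 CPM) and at 1.2 to 11.4 CPM in MYO5BΔIEC (edgeR adjusted p = 0.00261) and 0.121 to 4.95 CPM in MYO5B(G519R) (edgeR adjusted p = 0.0145). With 0 to 8 counts in control cultures, Hmcn2 passed the filter on low counts only through the mutant cultures. Its calls are therefore no independent support for a rise. Tinagl1, Npnt and Fbln1, which encode matrix glycoproteins, rose in both models, with log2 fold changes of 1.00, 0.91 and 0.86 after loss of MYO5B and of 1.05, 1.01 and 0.73 with the G519R allele. Tinag, a tubulointerstitial nephritis antigen, fell from 25.2 to 13.8 and 13.5 CPM (edgeR adjusted p = 0.0209 and 0.00905), and Ntn4 (netrin-4) was the other gene that fell in MYO5B(G519R), by 1.24 on the log2 scale. Both were named after their values were seen, since they are the only linkers that fell.

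Of 17 receptors and hemidesmosome genes, 9 rose and none fell in each model (median log2 fold change 0.56 in MYO5BΔIEC and 0.55 in MYO5B(G519R)). Itgb4, the integrin subunit of hemidesmosomes that binds laminin-332, averaged 55.8 CPM in control and rose to 266 and 217 CPM in the models (edgeR adjusted p = 0.000852 and 0.00192). Plec (plectin), which ties that integrin to keratin, averaged 104 CPM in control and rose to 446 and 371 CPM (edgeR adjusted p = 0.0017 and 0.00529). Ddr1, a collagen receptor kinase, and Itga3, a laminin-binding integrin subunit, rose in both models, Ddr1 by 2.70-fold and 2.60-fold and Itga3 by 2.63-fold and 2.39-fold. Bcam, which binds laminin α5, and Sdc1 (syndecan-1) also rose in both, with a log2 fold change of 1.08 for Bcam and 0.83 for Sdc1 in MYO5BΔIEC.

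Of 20 genes of collagen modification and export, 16 were tested, and 3 rose and none fell in MYO5BΔIEC (median log2 fold change 0.53), while 2 rose and 1 fell in MYO5B(G519R) (median 0.30). These counts are near what the shares of all genes called higher, 13.5% and 13.1%, would give, and are no result about the list. Plod2, a lysyl hydroxylase, averaged 4.32 CPM in control and rose to 23.5 CPM in MYO5BΔIEC (edgeR adjusted p = 0.0098) and to 16.9 CPM in MYO5B(G519R) (edgeR adjusted p = 0.0255). Its cultures ran from 2.09 to 6.39 CPM in control, from 6.89 to 42.1 CPM in MYO5BΔIEC and from 3.77 to 29.8 CPM in MYO5B(G519R), the last with overlap. Loxl4, a lysyl oxidase, rose from 0.0409 CPM in control to 0.482 and 0.532 (edgeR adjusted p = 0.0281 and 0.0098). Control cultures held 0 to 3 counts of Loxl4, which passed the filter on low counts only through the mutant cultures. Its calls are therefore no independent support for a rise. MYO5BΔIEC culture 3, at 0.0708 CPM, lay within the control range of 0 to 0.0997 CPM. The third in MYO5BΔIEC was P3h1, a prolyl hydroxylase, and the gene that fell was Serpinh1, the collagen chaperone HSP47, which stayed at 1.59 CPM or below in every culture. Both were named after their values were seen. Serpinh1 passed the filter in that comparison only through control cultures, so its fall has no independent support from the call.

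Of 14 heparan sulfate synthesis genes, 4 rose and 1 fell in MYO5BΔIEC, and 5 rose and 1 fell in MYO5B(G519R), with medians of 0.33 and 0.34. The sulfotransferases Hs6st1, Ndst1 and Ndst2 and the chain initiating Extl3 rose in both, by log2 fold changes of 0.53 (Ndst2) to 0.85 (Hs6st1) in MYO5BΔIEC. Glce, the epimerase that converts glucuronic to iduronic acid, fell in both, by 0.74 and 0.65 on the log2 scale. Of 19 proteases, inhibitors and sulfatases, 10 were tested, and 4 rose in MYO5BΔIEC and 5 in MYO5B(G519R), with medians of 0.83 and 0.90. Mmp15 and Mmp14, membrane bound metalloproteinases, rose by 2.12 and 0.83 in MYO5BΔIEC on the log2 scale, and Sulf2, which removes sulfate from heparan sulfate, from 63.2 CPM to 215 and 159 (edgeR adjusted p = 0.00088 and 0.00242). Bmp1, the protease that trims procollagens and laminins, rose 2.80-fold and 2.08-fold. No gene of these lists was called between treated and vehicle cultures by edgeR, where 0% of all genes were.

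Markers of other cells were read beside these results. Smooth muscle and pericyte markers summed to 0.233 to 0.897 CPM in control and to 0.799 to 6.82 CPM in the other groups, with Rgs5 the gene that rose (0.0395 CPM in control and 3.61 in MYO5BΔIEC, edgeR adjusted p = 0.00182). Rgs5 also rose in MYO5B(G519R) (1.65 CPM, edgeR adjusted p = 0.00565). Of that list of 7, 5 stayed under 1 CPM in all 16 cultures. Of 2 fibroblast markers tested, Col1a1, a fibrillar collagen chain, rose in MYO5B(G519R), from 0.0562 to 0.317 CPM (edgeR adjusted p = 0.0476). Endothelial markers summed to 4.86 to 11.0 CPM over all groups, with 5 of 8 under 1 CPM throughout, and Vwf rose in MYO5B(G519R) from 0.603 to 1.32 CPM (edgeR adjusted p = 0.0276, 1 of 5 tested). Immune markers summed to 2.89 to 9.38 CPM, and Cd68 was the 1 gene of that list of 6 to pass 1 CPM, with 2 of the others at 0 throughout. Cd68 rose in MYO5BΔIEC from 2.95 to 6.28 CPM (edgeR adjusted p = 0.0332, 1 of 2 tested). Enteric glia markers summed to 1.53 to 4.79 CPM, and S100b, 1 of 2 tested, rose from 0.313 CPM to 1.6 and 1.01 CPM in the models (edgeR adjusted p = 0.0102 and 0.0408). In treated enteroids against control, Rgs5, S100b and the endothelial gene Tie1 were called higher (edgeR adjusted p = 0.00415, 0.0083 and 0.0391). The marker genes called were named after their values were seen. Of these, Rgs5, S100b, Col1a1 and Tie1 passed the filter on low counts only through the groups where they were high. Their calls are therefore a description and no independent support for a rise. The crypt marker list summed to 3940 to 7410 CPM in control and 1370 to 3630 CPM in the other groups. Of these sums Olfm4, a crypt stem cell marker, alone held 1570 to 5710 CPM in the controls. Olfm4 fell from 3740 CPM to 777 in MYO5BΔIEC (edgeR adjusted p = 0.00896) and 1210 in MYO5B(G519R) (edgeR adjusted p = 0.0174). It was the 1 gene of that list of 6 called in each model, and the other 5 were not called. The median log2 fold change of the list was -0.158 in MYO5BΔIEC and 0.08 in MYO5B(G519R). The enterocyte list summed to 2780 to 15100 CPM in control and 4970 to 10900 CPM elsewhere. Control culture 1 was far below the other controls for Fabp1 (245 CPM against 3680 to 4450) and Fabp2 (119 CPM against 923 to 1310). Of the 8 genes, edgeR called 2 higher and 0 lower in MYO5BΔIEC and 1 higher and 1 lower in MYO5B(G519R). In treated enteroids against control, 2 were called higher and 3 lower. In bulk RNA, a change in the number of cells of a type cannot be told apart from a change of transcript per cell. The part of these markers and of the mitochondrial share in the members' differences was not tested.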

How the data were processed

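RNA-seq of 16 enteroid cultures was analyzed, 4 in each of 4 groups taken from the sample labels. Per the study's methods, alignment of the paired reads to GRCm38 used STAR 2.5, alignments were parsed with TopHat, and reads per gene were counted by the authors in HTSeq 0.6.1. The deposited counts were used as they stand. For the deposited FPKM, the authors divided counts by gene length and library size. Strand setting and treatment of multimapping reads are not given in the sources used here.

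The tests used edgeR 4.0.16 under R 4.3.3 (TMM, genes with 10 or more counts in 2 or more of 8 libraries, quasi-likelihood F test, 2 groups at a time, Benjamini-Hochberg adjustment over all genes tested, threshold 0.05). Intervals of folds are 95% intervals from the same fit. CPM were scaled by TMM over all 16 libraries. The study describes 4 individual cultures from 4 mice for each group. Chain ratios and shares were computed from FPKM. Promoter windows of 300 bases came from RefSeq (GRCm38.p6), which held 7 of the 9 members. The alternatives were DESeq2 1.42.0, its size factors in edgeR, no filter, filterByExpr, all 4 groups in 1 fit, a replicate block, removal of the trend on gene length, limma 3.58.1 on log2(FPKM + 1) and log2(FPKM + 0.1), and each culture left out. Tested on simulated counts for MYO5BΔIEC against control (17740 genes, 200 changed), the fit called 108 of the changed genes, 75% of the 4-fold and 27.3% of the 2-fold changes, with 7 false calls. In the data 4910 of 17951 genes were called. The share of changed genes bears on the adjusted p, so these rates need not hold for the real comparison.

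The members and the gene lists were chosen with earlier results of these data known. Named from the lists were the other collagen IV and laminin chains, of which 1 gene is not reported here, Nid1 and Nid2, and up to 6 genes a list called in the same direction in both models, by the largest log2 fold change in MYO5BΔIEC. Genes named outside this rule are marked as such.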

Additional observations from a re-analysis of the deposited data

Results flagged for a closer look

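In groups of 4 cultures, a culture far from the other 3 was looked for in each member and group, 36 groups in all, of which chance alone would flag about 1 in 20, and 2 were found. Lamb3 in MYO5B(G519R) enteroids was lowest in culture 4 at 92.1 CPM, where the other 3 cultures were at 110 to 113 CPM. Lamc1 in control enteroids was highest in culture 1 at 47.3 CPM, where the other 3 cultures were at 21.4 to 24.8 CPM.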

How the results depend on the processing

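All 9 members stayed higher than control in sign in both models under every alternative and with each culture left out. Members called in MYO5BΔIEC against control were 7 with limma on log2(FPKM + 1) (Col4a1 and Lamb1 lost), 8 with the replicate block (Lamb1 lost, edgeR adjusted p = 0.0539) and 9 under the other 7 alternatives, and 7 to 9 with 1 culture left out. In MYO5B(G519R) they were 9 throughout and 8 to 9 with 1 culture left out, and in treated enteroids against control 8, 9 with the block (Hspg2, edgeR adjusted p = 0.0373) and 7 to 9. With 1 culture left out, 2963 to 7474 genes were called in MYO5BΔIEC against control (7474, 2983 and 2970 on leaving out controls 1, 3 and 4, and 2963 on leaving out culture 2 of MYO5BΔIEC). For MYO5B(G519R) the range was 2880 to 8146 (8146 without control culture 1, 2880 and 3028 without control culture 3 or 4, 3164 and 2960 without MYO5B(G519R) culture 1 or 2). For treated enteroids it was 2957 to 7459 (3399, 2957 and 3010 without control culture 2, 3 or 4, and 3302 and 3020 without treated culture 3 or 4). The cause was not tested. The labels number cultures 1 to 4 in each group, and same-numbered cultures deviated together with r of -0.184 to 0.382. Whether a number marks a shared mouse is not stated, and these values cannot decide it. The main fits used no pairing. With the replicate block 3647 genes were called in MYO5BΔIEC in place of 4910, 3691 in MYO5B(G519R) in place of 4778 and 4401 in treated enteroids in place of 5275.

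Between treated and vehicle cultures, DESeq2 called 91 genes and 1 member (Hspg2), and no filter gave 12 genes and 0 members. With 1 culture left out 0 genes were called. Between the models DESeq2 called 4 genes, no filter 2, both limma fits 0, and leaving out 1 culture 0 to 2. Small differences changed sign. For Hspg2 between the models, log2 fold changes were 0.00799 with no filter, 0.0364 with the replicate block, 0.0534 with the length trend removed, and 0.0245 and 0.0344 with limma. Leaving out 1 culture gave -0.144 to 0.256 for Hspg2, -0.134 to 1.05 for Col4a1, 0.174 to 1.27 for Col4a2 (no change of sign), -0.482 to 0.0328 for Lama5, -0.491 to 0.139 for Lamb1 and -0.0658 to 0.033 for Lamb3. Between treated and vehicle cultures it gave 1.15 to 2.56 for Col4a1 and 1.5 to 2.96 for Col4a2, both without a change of sign, and -0.1 to 0.6 for Lama3, -0.0332 to 0.509 for Lama5, -0.593 to 0.03 for Lamb1 and -0.118 to 0.134 for Lamc1. None of these passed the threshold.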
